A study of Arabidopsis thaliana with 12 samples.

Results

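A pair of sugar fragments was set directly against each other in Arabidopsis roots: cellobiose, a glucose disaccharide released when plant cellulose is broken down, and chitin, given as chito-oligomers, the fragments of fungal cell walls. The comparison takes 6 of the 12 arrays of the study, 3 of roots treated with cellobiose and 3 of roots treated with chitin, and sets them against each other by replicate number over 22746 probe sets. The members were chosen from the array titles alone. The other 6 arrays, 3 of control roots without elicitor and 3 of roots given OGs (oligogalacturonides, fragments of plant pectin), serve here to place levels, in tests against control and OGs, and to estimate the spread between arrays.

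All groups were roots of 7 day old seedlings of the Col-0 ecotype with no transgene or mutation named, sampled 25 min after treatment. Many seeds were sown together on a nylon mesh, whose openings let roots through and so parted them from shoots; each sample is therefore a pool of seedlings. The treatments had 3 biological replicates each. The RNA samples were first screened by qRT-PCR for the expected profile of WRKY30, an elicitor-responsive transcription factor gene, so they had passed a check on the early response before the arrays were run. No dose of cellobiose or chitin is stated in the labels, and the elicitors cannot be taken as compared at matched doses. In pooled roots a lower transcript level may come from fewer cells of a type or from less RNA per cell, and these cannot be told apart.

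Plants read fragments of cell walls as signals. Chitin oligomers are bound by receptor proteins with LysM domains at the root surface, among them CERK1 of Arabidopsis, which pass the signal on to cytoplasmic kinases such as BIK1, to calcium influx, to MAP kinases and to WRKY transcription factors. Fragments of the plant's own wall, such as cellobiose and oligogalacturonides, mark damage and set off an early response of the same general kind. Cellobiose is also a sugar, which beta-glucosidases can split into glucose.

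Against one another, the elicitors differed at few probe sets. Of 22746 probe sets, 4 (0.0176%) were called, meaning a limma adjusted p (Benjamini-Hochberg over all probe sets) under 0.05. Of these 1 was higher with cellobiose (0.0044%) and 3 with chitin (0.0132%). The first is BGLU27, which belongs to the beta-glucosidases. The others are the loci AT3G12910 and AT2G36440, which the annotation used here does not name further, and the probe set 263378_at, which has no gene assigned. At an unadjusted p under 0.05 there were 1291 probe sets (5.68%), 601 higher with cellobiose (2.64%) and 690 higher with chitin (3.03%). On values scaled to the poly-A spike-ins, which moved the median of all probe sets by 0.16 log2 towards cellobiose, 79 were called, 39 higher with cellobiose and 40 with chitin. In that fit fewer, 1179, had an unadjusted p under 0.05. Ordinary t statistics on the scaled values left 576 at that level and called no probe set. For 21734 probe sets (95.6%) the 95% interval of the difference lay within 1 log2 of 0, a 2-fold change either way. That share describes the measured values, low ones included. A mean under 5 log2 was found at 7866 probe sets, with a median SE of 0.097 log2, and 5 of them differed by at least 1 log2. Their signal was not shown to lie above background, so a narrow interval there does not bound a difference in transcript.

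BGLU27 stood at 7.44, 7.47 and 6.51 on the log2 intensity scale in the 3 cellobiose arrays and at 4.38, 4.47 and 4.30 in the 3 chitin arrays. The groups did not overlap, and every cellobiose array lay more than 2 log2 above every chitin array. In the control arrays it stood at 3.95, 4.00 and 3.78, and with OGs at 4.53, 4.18 and 4.40, so the chitin arrays stood near both. The cellobiose level exceeded the chitin level by 2.75 log2 (SE 0.19, 95% interval 2.32 to 3.19, limma adjusted p = 0.0017), 6.75-fold, and was higher in 3 of 3 pairs. Where groups do not overlap, all pairs must share 1 sign, so the pair counts here and below add no support. Against control BGLU27 rose by 3.23 log2 with cellobiose (adjusted p = 5.70e-05). The chitin value against control was 0.47 (adjusted p = 0.178). Without replicate 1 of every group the difference between the elicitors was 2.60 log2 with an adjusted p of 0.262, with only the 6 arrays fitted the adjusted p was 0.0734, and with ordinary t statistics it was 0.200, or 0.264 on values scaled to the poly-A spike-ins.

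**Figure D1:**
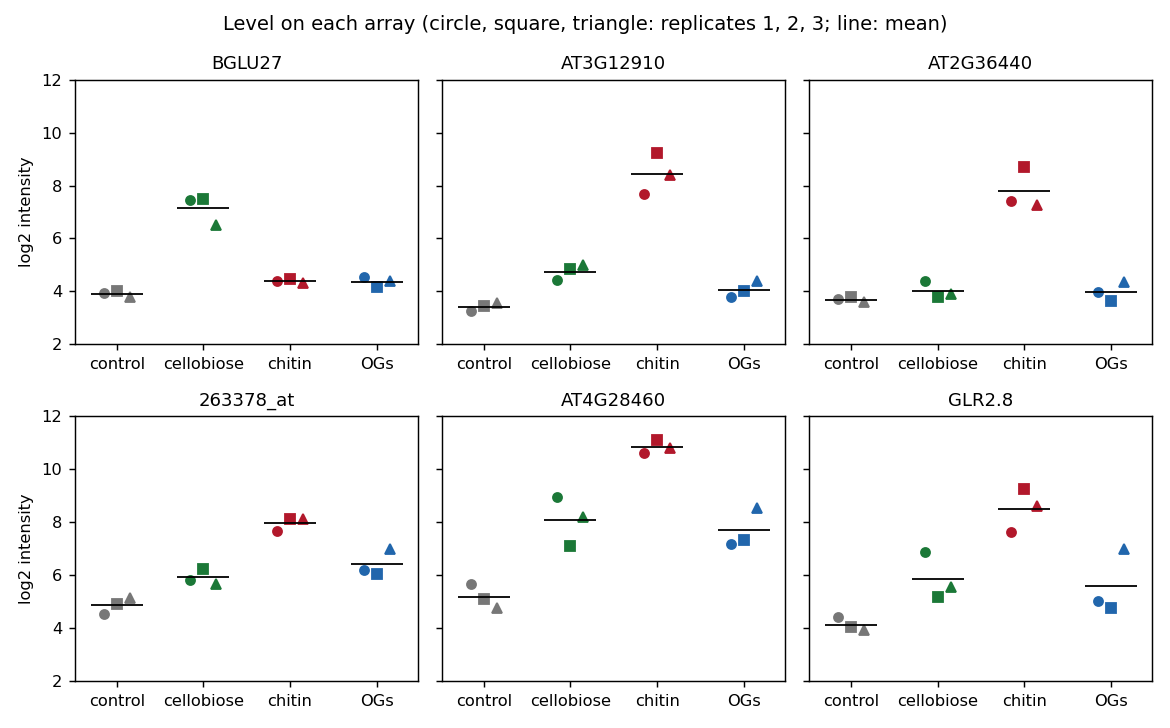
Log2 intensity on each of the 12 arrays for the 4 called probe sets and for AT4G28460 and GLR2.8, which were not called. Horizontal lines are group means; BGLU27 stands apart only in the cellobiose arrays, at 6.51 to 7.47, and AT3G12910 and AT2G36440 stand highest in the chitin arrays.

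AT3G12910 stood at 4.42, 4.83 and 4.99 with cellobiose and at 7.68, 9.23 and 8.41 with chitin. Here too the groups did not overlap, with the chitin arrays at the top of all 12. The difference was -3.69 log2 (SE 0.24, 95% interval -4.23 to -3.15, adjusted p = 0.0017), a level 12.9-fold higher with chitin, in 3 of 3 pairs. Both elicitors raised it over the control levels of 3.24, 3.45 and 3.54, by 1.34 log2 with cellobiose (adjusted p = 0.0091) and by 5.03 log2 with chitin (adjusted p = 2.36e-05). The call was lost without replicate 1 or 3 of every group (adjusted p = 0.154 and 0.179) with only the 6 arrays (0.0734), and with ordinary t statistics (0.200, or 0.264 on spike-in scaled values), at differences of -3.53 to -3.91 log2.

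AT2G36440 stood at 4.40, 3.78 and 3.91 with cellobiose and at 7.40, 8.69 and 7.25 with chitin. The cellobiose arrays were at or near the control levels of 3.70, 3.77 and 3.59, and the groups did not overlap. The difference was -3.75 log2 (SE 0.35, 95% interval -4.55 to -2.95, adjusted p = 0.0150), 13.5-fold higher with chitin in 3 of 3 pairs. Against control it rose by 4.09 log2 with chitin (adjusted p = 2.33e-04), while the cellobiose value was 0.34 (adjusted p = 0.678). The call was lost without cellobiose replicate 2 or 3 (adjusted p = 0.0510 and 0.102), without replicate 1 or 3 of every group (0.326 and 0.341) with only the 6 arrays (0.224), and with ordinary t statistics (0.554, or 0.829 on spike-in scaled values), at differences of -3.52 to -4.13 log2.

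The unnamed probe set 263378_at stood at 5.83, 6.24 and 5.67 with cellobiose, at 7.65, 8.12 and 8.11 with chitin and at 4.54, 4.89 and 5.13 in control. It too had no overlap between the elicitors. The difference was -2.05 log2 (SE 0.22, adjusted p = 0.0403), 4.14-fold higher with chitin in 3 of 3 pairs, and it rose against control with both elicitors, by 1.06 log2 with cellobiose and by 3.11 log2 with chitin. Of the 4 calls this one is the nearest to the threshold: it was lost on leaving out any one cellobiose or chitin array except cellobiose replicate 2 (adjusted p = 0.0846 to 0.312), without replicate 1 or 3 of every group (0.684 and 0.179) with only the 6 arrays (0.0836), with a filter on the mean level (0.0712) and with ordinary t statistics (0.740, or 0.829 on spike-in scaled values). The next probe set below it, AT5G66390 (PEROXIDASE 72 in RefSeq, a secreted peroxidase of the kind that cross-links wall polymers), was named after its values were seen. It stood at 10.32, 10.57 and 10.15 with cellobiose and at 9.42, 9.54 and 9.41 with chitin, a difference of 0.89 log2 (SE 0.11, 95% interval 0.65 to 1.14) with an adjusted p of 0.0729.

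The OGs arrays give each called gene a further plant fragment to stand beside, in fits that share the cellobiose or chitin arrays with the comparison above. In those fits 24 probe sets (0.106%) were called between chitin and OGs and 10 (0.044%) between cellobiose and OGs. AT3G12910 was 4.38 log2 higher with chitin than with OGs (adjusted p = 3.94e-04) and AT2G36440 3.80 log2 higher (adjusted p = 0.0081). BGLU27 was 2.77 log2 higher with cellobiose than with OGs (adjusted p = 0.0033), and the chitin level differed from the OGs level by 0.01 log2. The chitin level of 263378_at lay 1.55 log2 above the OGs level, with an adjusted p of 0.0558.

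A larger group of probe sets had means at least 1 log2 apart, most without passing the test. It held 16 probe sets higher with cellobiose (0.0703%) and 98 higher with chitin (0.431%), the called ones included. Scaled to the spike-ins the counts were 38 and 61. The cellobiose count was 33 and 35 without cellobiose replicate 1 or 3 and 28 and 38 without replicate 1 or 3 of every group, and the chitin count was 176 without cellobiose replicate 2. The chitin side was the less even across replicates: 75 of its 98 kept their direction in all 3 pairs, against 16 of 16 on the cellobiose side. Of all probe sets 25.6% kept 1 direction in the 3 pairs. In 55 of the 98 and 14 of the 16 the groups did not overlap, where the shares over all probe sets were 5.13% higher with chitin and 4.93% higher with cellobiose; these counts follow in part from the choice of large differences and are given as a description. Of the 98, 58 rose with chitin against control, 30 rose with both elicitors and 39 were called with neither. Over all probe sets 4.97% rose with chitin and 4.73% with cellobiose, and since the 98 were chosen for high chitin means nothing is read from their share. The median chitin value against control was 2.08 log2 and the median cellobiose value 0.69.

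**Figure D2:**
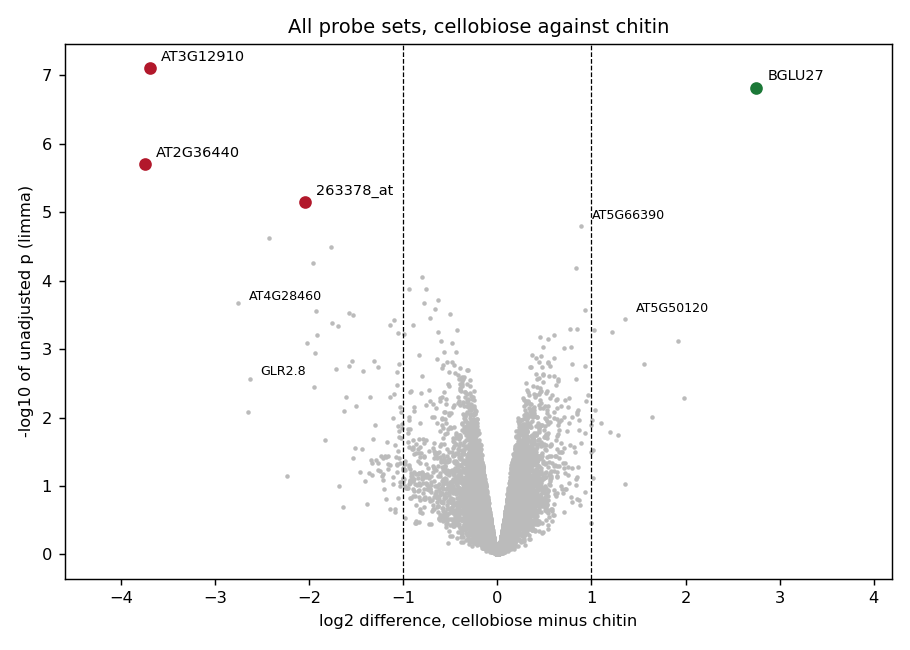
Log2 difference of cellobiose minus chitin (horizontal axis) against the negative log10 of the unadjusted limma p (vertical axis) for 22746 probe sets. Coloured points are the 4 called probe sets, dashed lines mark 1 log2, and the points beyond the left line, 98 higher with chitin, outnumber the 16 beyond the right line.

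Genes of green tissue were read as well, and PRK and SBPASE among them belong to the 98. The 8 measured photosynthesis genes of the 53 listed (PRK, SBPASE, RCA, PSBY, PSBW, LHCB4.1, LHCB4.2 and LHCB4.3) encode enzymes of carbon fixation and proteins of the photosystems and are known chiefly from green tissue. Here and for the lists that follow, a gene counts as measured where a probe set is assigned to it alone. The photosynthesis list was added after the data were seen. Their summed log2 level was 10.89, 12.20 and 10.68 in cellobiose replicates 1 to 3, 12.07, 12.12 and 11.94 with chitin, 12.78, 11.63 and 12.58 in control, and between 11.80 and 11.97 with OGs. Cellobiose replicates 1 and 3 thus stood lowest of the 12 arrays and cellobiose replicate 2 stood with the chitin arrays. All 8 genes were lower with cellobiose in pairs 1 and 3, where the median differences were -1.49 and -1.45 log2, and 2 of 8 were lower in pair 2, where the median was 0.16. None was called between the elicitors, and SBPASE, an enzyme of the Calvin cycle, had a difference of -1.27 log2 (SE 0.55, adjusted p = 0.863), from 5.55, 7.49 and 5.16 with cellobiose against 7.36, 7.48 and 7.18 with chitin. A separate list of 12 shoot markers had only 1 measured gene, with a difference of -0.70 log2, not called. The root markers measured (PYK10, EXPA7 and EXPA18, 3 of 14 listed) summed to 13.45 to 14.07 with cellobiose and 13.40 to 13.81 with chitin. That sum is carried by PYK10. All 3 had a higher mean with cellobiose, by 0.03 to 0.60 log2, and in pair 2 all 3 were higher with cellobiose, by 0.19 to 1.01 log2 with a median of 0.55.

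In pair 2 the photosynthesis genes lay between -0.19 and 0.43 log2. In that pair 71 of the 98 probe sets were at least 1 log2 higher with chitin and 14 of the 16 at least 1 log2 higher with cellobiose. Over all 22746 probe sets the counts in pair 2 were 330 and 198. Both sets were chosen on means that include pair 2, the largest pair for 66 of the 98, so nothing is read from these counts. AT3G12910, AT2G36440 and 263378_at differed there by -4.40, -4.91 and -1.89 log2 and BGLU27 by 3.00. These are values of 1 pair, and the part of shoot RNA in any of the 98 was not tested. Pair 2 was uneven in its own way. Of the 98, 2, 14 and 7 went the opposite way in pairs 1, 2 and 3. Among those opposite in pair 3 was AT5G10040, with differences of -0.89, -4.64 and 0.59. It stood at 5.17 in cellobiose replicate 2 and 5.20 in OGs replicate 1, against 7.51, 10.48 and 9.46 in control. What set such loci apart on single arrays was not tested. Without replicate 2 of every group, 90 of the 22746 probe sets were called, 89 of them higher with chitin. Of the 8 photosynthesis genes 7 were among them. That list was added after the data were seen, and pair 2 is the one in which its genes lay closest. Their calls without it follow in large part from that choice, and nothing is read from them.

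**Figure D3:**
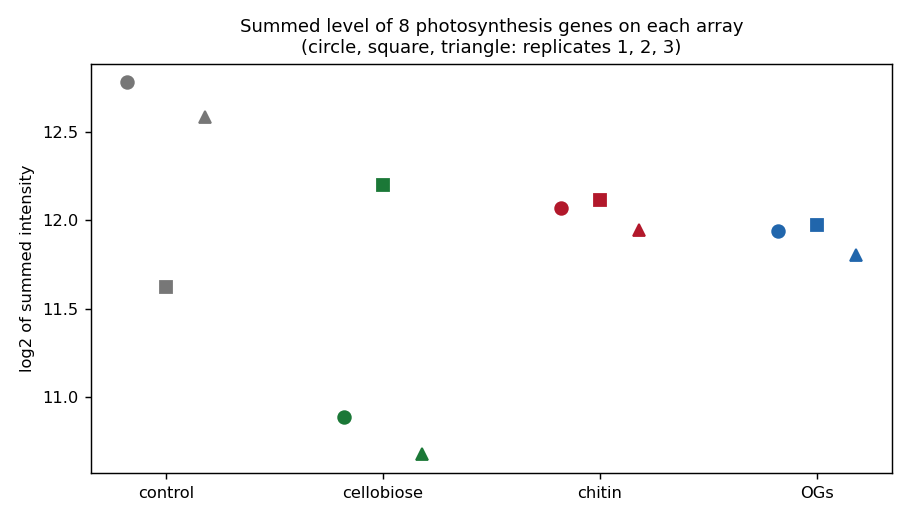
Log2 of the summed intensity of 8 photosynthesis genes on each array, by group. Cellobiose replicates 1 and 3 lie at 10.89 and 10.68, below every other array, and cellobiose replicate 2 at 12.20, beside the chitin arrays.

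The pairs were not equally far apart. Probe sets at least 1 log2 higher with chitin numbered 148, 330 and 211 in pairs 1, 2 and 3, and those at least 1 log2 higher with cellobiose 47, 198 and 102. The SD of the differences over all probe sets was 0.25, 0.38 and 0.30 log2. Across probe sets, which are not independent, the differences of pairs 1 and 2 correlated at 0.26, those of pairs 1 and 3 at 0.20 and those of pairs 2 and 3 at -0.01. Pair 2 held the largest of the 3 differences for 66 of the 98 probe sets higher with chitin. Arrays of one elicitor correlated with one another at 0.988 to 0.993 and with arrays of the other elicitor at 0.986 to 0.995, so the ranges within and between groups overlapped.

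Among the genes on the chitin side that the test did not call, AT4G28460 had the largest mean difference of those with a named locus. It stood at 8.97, 7.10 and 8.21 with cellobiose, at 10.61, 11.12 and 10.82 with chitin and at 5.67, 5.09 and 4.76 in control. All chitin arrays lay above all cellobiose arrays, yet the cellobiose arrays spanned almost 2 log2. The difference was -2.76 (SE 0.46, 95% interval -3.81 to -1.70, adjusted p = 0.323). Against control AT4G28460 rose by 2.92 log2 with cellobiose (adjusted p = 0.0051) and by 5.67 log2 with chitin (adjusted p = 1.88e-04).

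Next by p came further loci at least 1 log2 apart, with the same direction in 3 of 3 pairs and no overlap between groups. Given by size of difference, they were AT3G48650 (-2.02 log2), AT4G04480 (-1.93), AT5G57510 (-1.72), AT1G07160 (-1.69), AT4G37290 (-1.58), AT1G72950 (-1.54), AT4G23880 (-1.53), AT3G45730 (-1.14) and AT5G22540 (-1.05), with adjusted p from 0.339 to 0.560. With AT3G12910, AT2G36440 and AT4G28460 they make up the 12 with the smallest p, at which the naming stopped; other loci with larger p met the same criteria. AT3G48650 was even within each elicitor: 4.54, 4.41 and 4.47 with cellobiose, 6.33, 6.68 and 6.46 with chitin, and 4.04, 3.94 and 3.82 in control. With OGs it ranged from 4.77 to 7.03, which reaches above the chitin arrays. AT4G23880 was the exception in kind, since it fell against control with cellobiose by 1.33 log2 (adjusted p = 0.0167) and had a chitin value of 0.20 (adjusted p = 0.720). The other 8 rose with chitin against control, by 1.37 to 6.25 log2.

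Differences of at least 1 log2 in every one of the 3 pairs were found at 13 probe sets on the chitin side and 6 on the cellobiose side. On the chitin side 6 of the 13 have a named locus: AT2G36440, AT3G12910, AT4G28460, AT3G48650, AT5G57510 and AT4G37290. On the cellobiose side BGLU27 and AT5G50120 do. AT5G50120 stood at 6.34, 7.55 and 6.77 with cellobiose, at 5.32, 5.58 and 5.68 with chitin and at 6.51, 6.28 and 6.16 in control, so its chitin arrays lay below control and its cellobiose arrays around or above it. Its difference was 1.36 log2 (SE 0.25, 95% interval 0.80 to 1.91, adjusted p = 0.359), and neither value against control passed the test.

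On the cellobiose side 9 of the 16 probe sets have 1 gene, and 8 of them met the rule for naming; the groups overlapped at the ninth, AT2G43880 (1.01 log2), named here after its values were seen. AT1G78410 rose with both elicitors, by 4.58 log2 with cellobiose and 3.58 with chitin, and stood 1.00 log2 higher with cellobiose (95% interval 0.29 to 1.71, adjusted p = 0.809). AT4G15975 also rose with both, by 3.78 and 2.50 log2, and its difference was 1.28 (0.28 to 2.28, adjusted p = 0.844). AT3G18250 rose with cellobiose by 2.92 log2 (adjusted p = 0.0392), with a chitin value of 1.57 (adjusted p = 0.240), and its difference of 1.36 had an interval of -0.29 to 3.00. PR-1-LIKE, a relative of the defence marker PR1, stood at 7.16, 8.34 and 7.31 with cellobiose and at 7.01, 6.15 and 6.34 with chitin (difference 1.10, adjusted p = 0.824), around a control level of 7.02 to 7.23. AT2G04680 and AT3G58000 had differences of 1.04 and 1.20 log2, with adjusted p of 0.779 and 0.827, and neither passed against control.

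**Figure D4:**
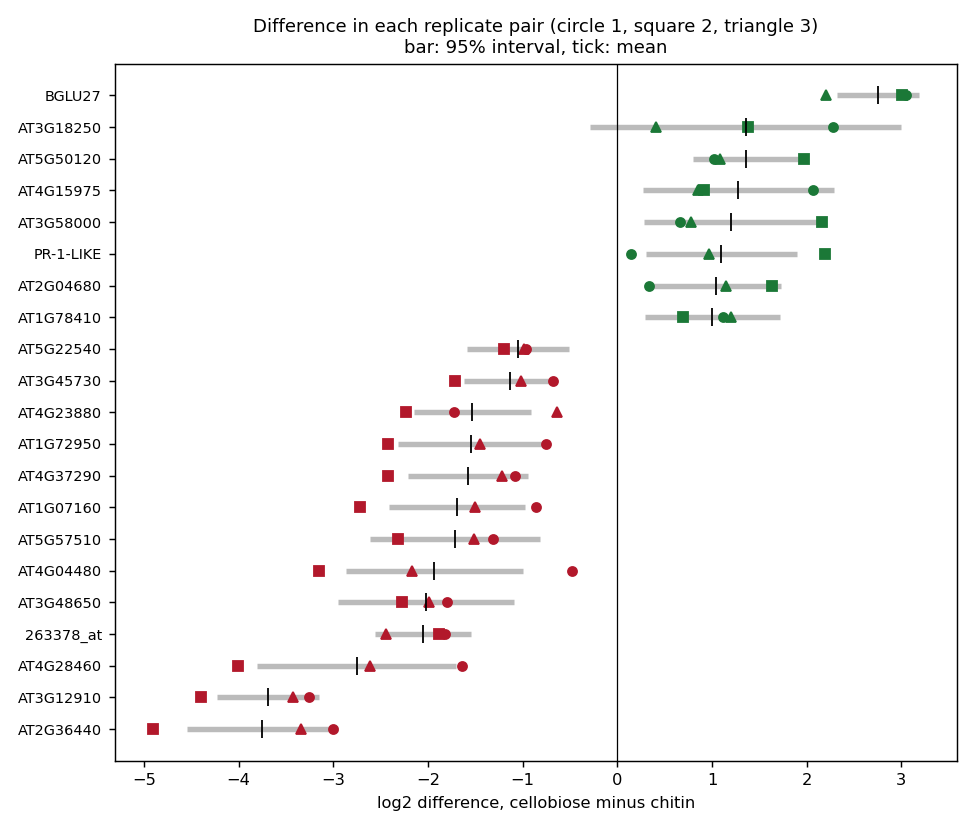
Log2 difference of cellobiose minus chitin in each replicate pair for 21 named probe sets, with the mean as a tick and the 95% limma interval as a bar. Differences keep one sign in all 3 pairs at every row, and pair 2 (squares) is the farthest from 0 at most loci higher with chitin.

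Among the gene lists, the largest difference on the chitin side was that of the ion channel gene GLR2.8, which was not called. Glutamate receptor-like channels are plant relatives of animal glutamate receptors that let cations, calcium among them, into the cell. GLR2.8 stood at 6.88, 5.17 and 5.53 with cellobiose, 7.62, 9.25 and 8.61 with chitin, 4.43, 4.03 and 3.92 in control and 5.01, 4.76 and 6.97 with OGs. The chitin arrays lay above the cellobiose arrays without overlap, but the pair differences ran from -0.74 in pair 1 to -4.08 in pair 2 and -3.07 in pair 3. The mean was -2.63 log2 (SE 0.65, 95% interval -4.09 to -1.17, adjusted p = 0.617). It rose with chitin against control by 4.36 log2 (adjusted p = 0.0031), and the cellobiose value was 1.73 (adjusted p = 0.153).

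GLR2.9 and GLR2.7 are the genes on either side of GLR2.8 on the chromosome. GLR2.9 had a difference of -0.83 log2 (adjusted p = 0.861) from 4.35, 3.83 and 3.71 against 4.19, 5.21 and 4.99, and it rose with chitin by 1.31 log2 (adjusted p = 0.0251). GLR2.7 had a difference of -0.28 (95% interval -0.54 to -0.02, adjusted p = 0.863) at levels of 4.14 to 4.63. The 3 genes are close relatives, and whether their probe sets share signal was not tested. Over the 8 measured members of the 20 listed, 6 were lower with cellobiose (5 scaled to the spike-ins), the median difference was -0.22 log2 against 0.00 over all probe sets, and none was called.

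The beta-glucosidases give the surroundings of BGLU27. These enzymes split glucose from sugar chains and from stored glucosides, and PYK10, the main one of the root, is held in endoplasmic reticulum bodies. Of 47 listed genes 22 were measured and 1, BGLU27, was called, where 4 of all 22746 probe sets (0.0176%) were. The median difference was 0.03 log2. The other 21 lay between -0.18 and 0.38, and for 20 of the 22 the interval lay within 1 log2; the exceptions were BGLU27 and BGLU32. BGLU32 stood at 6.10 and 5.40 in the replicate 1 arrays of cellobiose and chitin and at 3.52 to 4.04 in the other four, so its spread followed the replicate number. PYK10 stood at 13.28, 13.85 and 13.44 with cellobiose and 13.25, 13.65 and 13.58 with chitin (difference 0.03, 95% interval -0.36 to 0.42). BGLU16, the gene next to BGLU27 on the chromosome, had a difference of 0.32 (-0.05 to 0.68).

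Against control, 906 probe sets rose with both elicitors. These comparisons share the control arrays and are used here only to choose genes whose cellobiose to chitin difference can then be read. In all, 1077 probe sets (4.73%) rose with cellobiose and 1130 (4.97%) with chitin, and 889 (3.91%) and 872 (3.83%) fell. Among the 906 the median difference between the elicitors was -0.04 log2, with medians of 0.20, -0.28 and -0.07 in pairs 1, 2 and 3, so neither elicitor was the stronger in every pair. The interval lay within 1 log2 for 656 of them (72.4%), against 95.6% of all probe sets. Of the 906, 2 were called between the elicitors, AT3G12910 and 263378_at, where 4 of all 22746 probe sets (0.0176%) were. Of the same 906, 35 differed by at least 1 log2, 30 higher with chitin and 5 with cellobiose. Over all probe sets those shares were 0.431% and 0.0703%, and nothing is read from these counts. Of 538 shared falls 516 (95.9%) had an interval within 1 log2, near the 95.6% of all probe sets. None of the falls was called. The largest difference among them, at AT2G21560, was 0.999 log2, just under the bound.

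The strongest shared rises were bounded to different degrees. WRKY53, a transcription factor gene of defence and leaf ageing, stood at 12.80, 12.54 and 12.70 with cellobiose and 12.78, 13.12 and 12.82 with chitin, over 6.00 to 7.35 in control. The ranges of the elicitors overlapped, and the difference was -0.23 log2 with an interval of -0.84 to 0.38. AT5G52750 rose by 5.76 log2 with cellobiose and 5.74 with chitin, a difference of 0.02 with an interval of -0.995 to 1.04. AT5G28610 (-0.30, -1.30 to 0.70) and AT3G01830 (0.47, -1.01 to 1.95) were bounded less tightly. AT3G01830 stood at 8.59 in control replicate 1 and at 3.88 and 4.07 in the other two control arrays.

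Wider or shifted intervals were seen for other shared rises. AT3G02840 stood at 11.24, 9.73 and 10.44 with cellobiose and 11.23, 11.69 and 11.33 with chitin; the pair differences were 0.01, -1.95 and -0.89, and the mean -0.94 had an interval of -1.90 to 0.01. AT1G07160 stood at 9.09, 8.39 and 8.92 with cellobiose and 9.94, 11.11 and 10.42 with chitin. Its groups did not overlap, and the interval of -2.41 to -0.98 left out 0, with an adjusted p of 0.369. Among shared falls, LEA4-5, a late embryogenesis protein that guards cells in drying, had a difference of -0.51 (-1.71 to 0.69), AT5G61590 (DEWAX in RefSeq, a repressor of cuticular wax genes) 0.39 (-0.20 to 0.98) and AT1G49470 0.02 (-0.87 to 0.91).

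**Figure D5:**
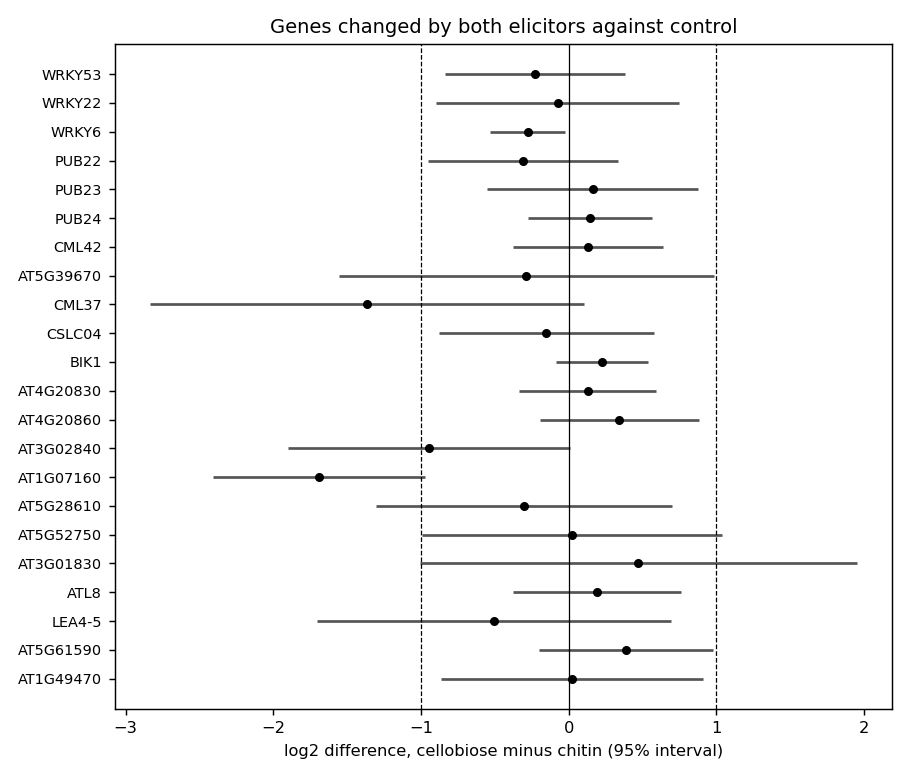
Log2 difference of cellobiose minus chitin with its 95% interval for 22 genes that both elicitors raised or lowered against control (limma adjusted p under 0.05), taken from the listed genes and the strongest shared responses. Dashed lines mark 1 log2; the intervals of WRKY53, WRKY22, PUB22, PUB23, PUB24, CML42 and BIK1 lie between them, and those of CML37, AT1G07160 and AT3G02840 reach well beyond the left line.

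Signalling genes were measured in small part. Of 71 listed WRKY factors 7 were measured, all 7 had a lower mean with cellobiose (4 of 7 on values scaled to the spike-ins), the median difference was -0.16 log2, and all 7 intervals lay within 1 log2, as did 95.6% of those of all probe sets. WRKY6, a regulator of phosphate transport and senescence genes, stood at 10.32, 10.43 and 10.18 with cellobiose and 10.45, 10.75 and 10.56 with chitin, with a difference of -0.28 (-0.53 to -0.02, adjusted p = 0.863). PUB22, PUB23 and PUB24 encode U-box ubiquitin ligases that damp immune signalling; their differences were -0.31, 0.16 and 0.14, each with an interval within 1 log2, and each rose with both elicitors. BIK1, the receptor-like cytoplasmic kinase downstream of immune receptors, rose by 1.40 log2 with cellobiose and by 1.17 with chitin, a difference of 0.22 (-0.09 to 0.54). It was 1 of only 2 members measured of the 18 listed for chitin perception, so the receptors themselves are not covered here. The 4 measured loci of the 8 listed for perception and oxidation of cello-oligomers all had intervals within 1 log2, and AT4G20830 among them had a difference of 0.13 (-0.34 to 0.59).

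Calcium sensors were less even. Of 131 listed genes 9 were measured, 5 had an interval within 1 log2, the median difference was -0.25 log2 and none was called. CML37, a calmodulin-like calcium sensor, stood at 10.19, 7.40 and 9.21 with cellobiose and at 10.29, 10.70 and 9.92 with chitin, so that cellobiose replicate 2 alone lay far below the rest. The pair differences were -0.10, -3.29 and -0.71, and the mean of -1.37 (SE 0.65) had an interval of -2.84 to 0.10. CML43 stood at 7.94, 8.46 and 8.11 with cellobiose and 7.66, 7.85 and 7.72 with chitin, a difference of 0.43 (0.18 to 0.67, adjusted p = 0.689), and rose against control with cellobiose by 0.60 log2 (adjusted p = 0.0100). CML23 had a difference of -0.84 (-1.58 to -0.11, adjusted p = 0.863). CML42 rose with both and had a difference of 0.13 (-0.38 to 0.64).

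Chitinases, which cut fungal chitin, had a lower mean with cellobiose at all 6 measured members of the 11 listed (5 of 6 scaled to the spike-ins), with a median difference of -0.38 log2. None was called, and 2 of 6 intervals lay within 1 log2. AT2G43590 stood at 7.85, 7.47 and 8.21 with cellobiose and 9.28, 9.19 and 8.39 with chitin, without overlap but with the third pair close together, a difference of -1.11 (-1.88 to -0.34, adjusted p = 0.804). CHI had a difference of -0.84 (-1.80 to 0.11). Of the 6 loci, 5 lie within one short stretch of the genome (AT2G43570 to AT2G43620). Of these 6, only AT2G43610 passed against control, with chitin, by 0.30 log2 (adjusted p = 0.0302), at levels near 12 throughout. Chitinase genes outside the list of 11 were not counted, so the response of the family as a whole is not shown.

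No gene of wall synthesis was called. Of the 46 listed genes of cellulose synthesis and its relatives 9 were measured, and 7 had a higher mean with cellobiose (8 scaled to the spike-ins), as had 11387 of all 22746 probe sets. The median was 0.16 log2 and all 9 intervals lay within 1 log2, as did 95.6% of those of all probe sets. CSLC12 and CSLC5, of the family that builds the glucan backbone of xyloglucan, had differences of 0.52 (0.11 to 0.92) and 0.37 (0.11 to 0.64), with adjusted p of 0.843 and 0.804. CSLC5 stood at 7.64, 7.67 and 7.65 with cellobiose and at 7.25, 7.08 and 7.49 with chitin. CSLC04 rose with both elicitors, by 2.05 and 2.21 log2.

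In the phenylpropanoid pathway, which supplies lignin and coumarins, 4 of 16 listed genes were measured. HCT, an acyltransferase at the branch towards lignin, stood at 10.14, 10.32 and 10.26 with cellobiose and 9.91, 9.99 and 9.79 with chitin, against 10.16 to 10.29 in control. The groups did not overlap, and the cellobiose arrays stayed at the control level. The difference was 0.34 log2 (SE 0.08, 0.17 to 0.52, adjusted p = 0.554), and HCT fell with chitin against control by 0.35 log2 (adjusted p = 0.0273). CCR2, a reductase of monolignol synthesis, rose by 4.32 log2 with cellobiose and 3.72 with chitin, with a difference of 0.60 (-0.55 to 1.75).

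Cellobiose being a sugar, the genes of sugar status and transport were read as well. All 18 measured members of 64 listed, most of them SWEET sugar transporters, had an interval within 1 log2, with a median of -0.03 log2. Over all probe sets 95.6% had such an interval, so the count is near that of any list. ATL8, a ubiquitin ligase gene known as a marker of low sugar, fell against control with both, by 1.67 and 1.86 log2, with a difference between them of 0.19 (-0.38 to 0.76). AKINBETA1, a subunit of the SnRK1 energy-sensing kinase, had a difference of 0.03 (-0.18 to 0.24).

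Of the salicylate list 2 of 11 genes were measured. GRX480, a glutaredoxin that acts with TGA factors, stood at 11.07, 8.39 and 8.72 with cellobiose and 11.59, 10.26 and 9.42 with chitin; the groups overlapped and replicate 1 was highest in both. The difference was -1.03 (-2.04 to -0.02, adjusted p = 0.863). The lists of MYB factors and jasmonate genes had no measured member with a single gene, and those of AP2/ERF factors, NAC factors, MAP kinases and indole glucosinolate synthesis had 1 each, none called. Families were drawn by RefSeq symbol or synonym, so a member not named that way was missed. Loci given here by number alone, called ones included, may belong to these families, and nothing is shown for a family as a whole. The 3 measured reference genes had differences of -0.01 to 0.15 log2, each with an interval within 1 log2.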

How the data were processed

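RNA of 12 root samples was hybridised to Affymetrix ATH1 arrays. The deposited values are log2 intensities that the authors computed with GCRMA, per the series' design text, and the submitters' processing notes name Affymetrix Expression Console. Scanner files and detection calls were not used here, so low levels were not shown to lie above background. The 64 control rows were left out. Of 22746 probe sets 13513 have 1 gene, 503 several and 8730 none in the platform annotation; 13484 matched RefSeq TAIR10.1. Depth has no meaning for arrays, and 3 replicates a group limit the precision: the median SE was 0.109 log2.

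A limma 3.58.1 model (R 4.3.3) with treatment and replicate number was fitted to all 12 arrays, with 6 residual degrees of freedom and eBayes. The contrast was cellobiose minus chitin. On simulated data it called 45 of 50 differences of 1 log2 and 24 of 50 of 0.5, with 11 false calls. The simulation used normal noise and many planted differences, which ease the adjusted threshold, so these rates do not carry over to the real contrast. In the data, of probe sets at least 1 log2 apart, 1 of 16 higher with cellobiose and 3 of 98 higher with chitin were called. Named were all called probe sets, the up to 12 per direction with the smallest p of at least 1 log2, 1 sign in 3 pairs and no overlap, up to 2 per list with an unadjusted p under 0.05, the 6 strongest shared rises and 3 falls, and genes earlier results named. The comparison, members and 22 lists were chosen with earlier results of these data known. Some further list members are given for context. Alternatives were the block, the arrays fitted, eBayes settings, a filter, scalings and leaving out arrays.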

Additional observations from a re-analysis of the deposited data

How the results depend on the processing

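The directions of AT3G12910, BGLU27, AT2G36440 and 263378_at held under every alternative run, and their calls in 13 of 18, 13 of 17, 10 of 17 and 7 of 18. Without the replicate block 5 probe sets were called, 1 higher with cellobiose and 4 with chitin. Same-numbered cellobiose and chitin arrays had deviations from their group means that correlated at 0.52, 0.01 and -0.03, and 2 of 6 arrays correlated best with their own number, so the numbers are not shown to pair the samples. With only the 6 arrays, and by ordinary t statistics, limma called 0 in either direction, with 1216 and 1238 at an unadjusted p under 0.05; the first leaves fewer residual degrees of freedom. With trend and robust settings 2 were higher with cellobiose. With a mean of at least 5 log2 the count was 1, on the chitin side, with 0 on the cellobiose side. Of the 14880 probe sets tested there, 13922 had an interval within 1 log2. BGLU27 and AT2G36440 lay below this filter and were not tested under it.

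Scaling to poly-A spike-ins called 79, 39 higher with cellobiose and 40 with chitin, and left 38 and 61 at 1 log2 or more in place of 16 and 98; the cause was not tested. The prior degrees of freedom that eBayes estimated were 40.8 on those values and 3.09 in the main fit. Ordinary t statistics on those values, added after seeing the data, called 0, with 576 at an unadjusted p under 0.05. Leaving out arrays or whole replicates gave 0 to 90 calls, 0 to 1 higher with cellobiose and 0 to 89 with chitin; the lowest was without replicate 1 and the highest without replicate 2, with 1 without replicate 3 and 2 without cellobiose replicate 3. The count at 1 log2 ran from 13 to 38 on the cellobiose side and from 78 to 176 on the chitin side, highest without replicate 3 and without cellobiose replicate 2. Small differences of genes not called changed sign when arrays were left out: AT5G52750 (-0.25 to 0.32), AT1G49470 (-0.64 to 0.45), AT4G20830 (-0.0317 to 0.32), WRKY53 (-0.41 to 0.0344), AT5G28610 (-0.63 to 0.0786), LEA4-5 (-1.16 to 0.0023), PUB24 (-0.0164 to 0.41) and AT5G61590 (-0.0476 to 0.80). Signal over background could not be weighed.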
